A study of Homo sapiens with 4 samples.

Results

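The 10 genes described here carry the JAK-STAT signal downstream of gp130 and the feedback on it. They are the kinases JAK1, JAK2 and TYK2, the transcription factors STAT3, STAT5B and STAT6, the inhibitors SOCS2, SOCS3 and PIAS3, and the kinase PIM1. They were taken by gene symbol from the 23228 symbols in the count tables. ES2, an established ovarian cancer cell line, was grown in RPMI medium with serum and treated for 12 h with 10 nM EC359, a small-molecule inhibitor of the LIF receptor (LIFR), or with vehicle (0.1% DMSO). Libraries made with a stranded mRNA kit were sequenced for 2 samples per treatment, so each value below has n = 2. The study describes the samples of this experiment as biologically independent, and the results hold for 1 cell line, 1 dose and 1 time.

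Cytokines of the IL6 family, LIF among them, bring gp130 (IL6ST) together with a partner receptor such as LIFR. The JAK kinases bound to the receptor tails then phosphorylate the receptors and the STAT factors, and the phosphorylated STATs pair, enter the nucleus and bind DNA. Among the genes they switch on are those for SOCS proteins, which block the receptor complex and close a negative feedback loop, and the PIM kinases, which favour survival. The signal itself is a phosphorylation, which RNA counts do not measure. The comparison asks how much RNA of each component ES2 cells held after the receptor inhibitor was given.

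The libraries held between 25572494 and 31707553 counts on genes, and both EC359 libraries were deeper than both vehicle libraries. Sequencing depth and treatment therefore cannot be told apart, although each value below is scaled for depth. Of 9 epithelial and Mullerian marker genes, 5 were above 1 CPM (count scaled by library size) in the mean library and 1, MUC16, was at 0 in the 4 libraries. Their summed level was 533 to 575 CPM with vehicle and 589 to 595 with EC359, and its part in the results below was not tested. KRT7 and KRT18 were abundant, whereas EPCAM had 0 to 2 counts per library. Of 5 leukocyte markers, CD68 alone was above 1 CPM, CD3E was at 0, and PTPRC had 0 or 1 count per library. The summed leukocyte level was 89.8 to 95.6 CPM with vehicle and 90.5 to 91.9 with EC359. Of 4 endothelial markers 2 were above 1 CPM, CDH5 and KDR, and the sum was 123 to 131 with vehicle and 125 to 129 with EC359. In bulk RNA, fewer cells that express a gene and less of its RNA per cell cannot be told apart.

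No copy of the classical STAT site was found in the windows searched, which were available for 9 of the 10 members. Activated STATs bind a palindrome with the core TTCNNNGAA, and STAT6 also binds a wider form with 4 bases between the same arms. Each pattern is its own reverse complement, so 1 search covers both strands, and copies of the patterns can overlap only where one of them has an N. The window ran from 250 bases before to 50 bases after each annotated start (RefSeq, GRCh38.p14). Whether a window covers the promoter that ES2 cells use was not tested, and a gene's main start may lie outside it. A STAT site at such a start would not have been found. SOCS2 had no window in the table, and the other 9 members had 15 windows. TTCNNNGAA was in 0 of the 15, and in 7.66% of the 35116 windows of all genes. The wider form was also in 0 of the 15, and in 6.44% of all windows. These counts say only that the letters were not in these 300 bases. Some windows of the same gene overlap, and 0 of 15 was not tested against the shares of all windows. The window of STAT6, the member with the lowest p, and the first of 2 windows of SOCS3, the feedback inhibitor of gp130, are printed. Beside them stands the window of CISH, a SOCS family gene that is not a member and held 4 copies. The printed windows of STAT6, SOCS3 and CISH were not placed against each gene's main start. A lack of copies therefore says nothing about that start, and copies are not compared between these genes. STAT6 is at chr12:57110240-57110539, SOCS3 at chr17:78360876-78361175 and CISH at chr3:50611725-50612024, each on the minus strand and read 5′ to 3′. Capitals mark TTCNNNGAA, which in CISH began at positions -241, -230, -129 and -112 counted from the start.
STAT6: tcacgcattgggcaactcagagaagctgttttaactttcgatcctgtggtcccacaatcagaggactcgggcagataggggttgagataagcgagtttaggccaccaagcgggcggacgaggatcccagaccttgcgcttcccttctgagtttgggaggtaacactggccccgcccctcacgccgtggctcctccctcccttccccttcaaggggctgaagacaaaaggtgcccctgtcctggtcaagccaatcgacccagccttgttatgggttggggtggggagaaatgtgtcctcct
SOCS3: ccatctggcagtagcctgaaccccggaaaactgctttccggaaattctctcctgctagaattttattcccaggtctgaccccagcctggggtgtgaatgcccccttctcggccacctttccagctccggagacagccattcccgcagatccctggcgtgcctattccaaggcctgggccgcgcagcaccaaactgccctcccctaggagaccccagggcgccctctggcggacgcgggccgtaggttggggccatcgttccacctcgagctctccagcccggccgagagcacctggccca
CISH: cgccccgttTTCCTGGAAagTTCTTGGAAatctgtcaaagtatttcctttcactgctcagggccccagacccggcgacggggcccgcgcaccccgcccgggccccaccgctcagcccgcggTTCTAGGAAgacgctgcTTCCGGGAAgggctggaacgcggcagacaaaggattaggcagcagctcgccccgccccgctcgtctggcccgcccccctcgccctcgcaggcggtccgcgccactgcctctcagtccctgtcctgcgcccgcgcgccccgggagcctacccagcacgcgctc

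STAT6 RNA was lower after EC359, and STAT6 was the 1 member of the 10 past the threshold of the test. STAT3, JAK1 and SOCS3, the members closest to gp130, did not pass it. PIAS3, PIM1 and SOCS2 lay below vehicle in both EC359 libraries, and JAK1 and JAK2 above it, without passing the threshold. A call needed an adjusted p below 0.01 in edgeR's quasi-likelihood test, adjusted over the 12706 genes with enough counts to be tested, and all 10 members were among these. Of the 10 members 1 was called lower and 0 higher, beside 1.09% of all genes tested called in either direction and 0.795% called lower. At an adjusted p under 0.05, 2 members were lower, STAT6 and PIAS3, beside 4.32% of all genes in either direction. At an unadjusted p under 0.05, 3 members were lower with PIM1 added and 0 were higher, beside 21.6% of all genes in either direction and 11% lower. The mean was higher with EC359 for 4 members and lower for 6, beside 51% of all genes with a higher mean. The median log2 fold change was -0.06 over the members and 0.00 over all genes tested. The members' replicate values did not overlap between treatments for 6 genes, beside 51.5% of all genes, so a lack of overlap with 2 libraries per treatment is common in these data.

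**Figure D1:**
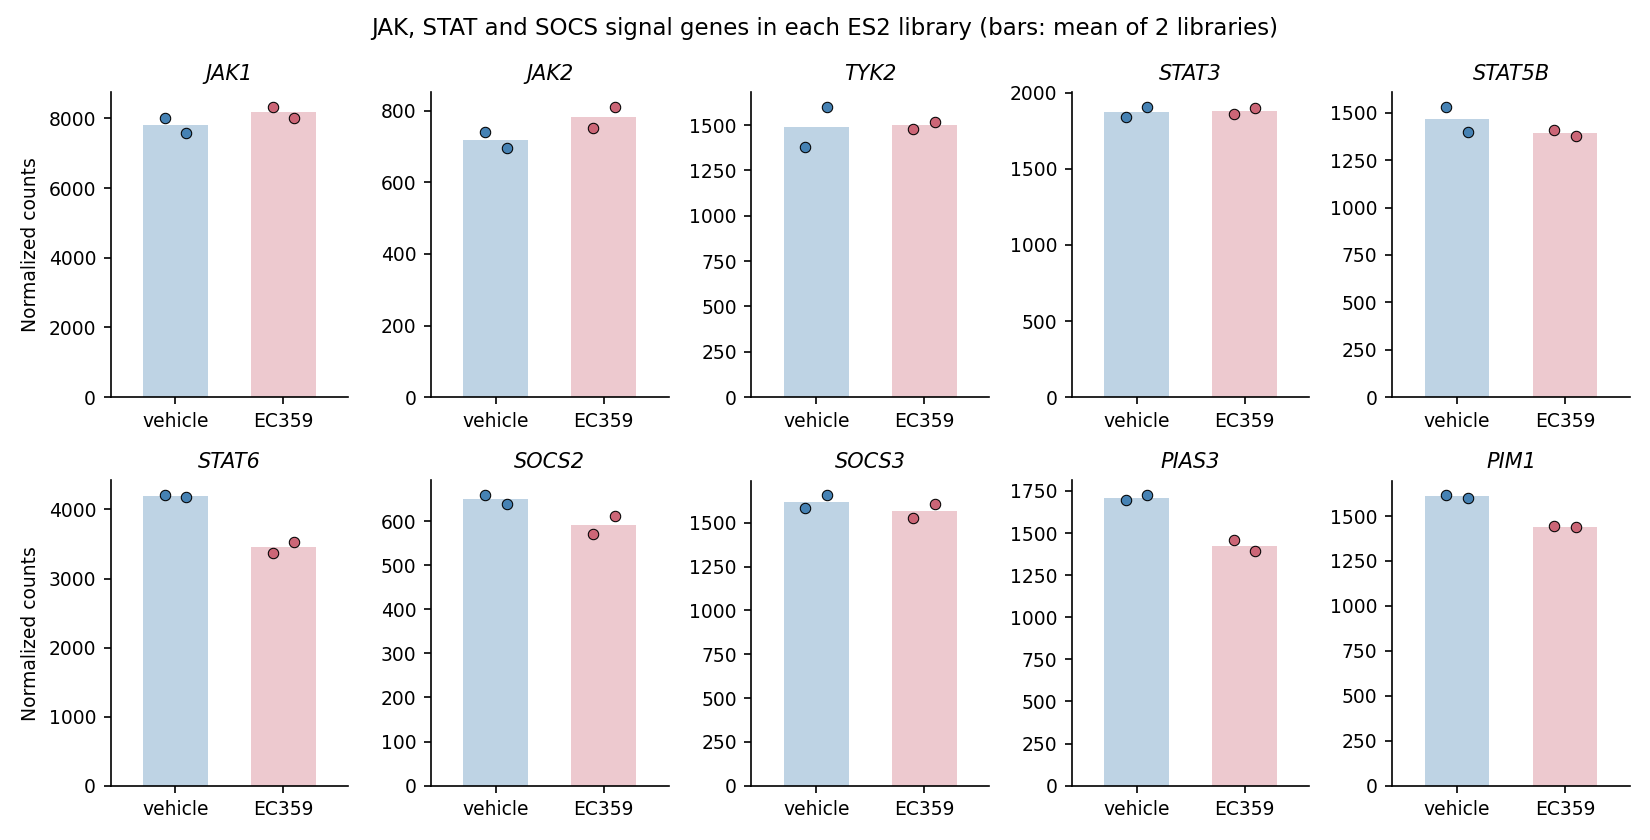
Normalized counts (counts scaled to the mean effective library size) of the 10 members in each library, with vehicle and EC359 side by side. Bars are means of 2 libraries, points are the single libraries and each vertical axis starts at 0. STAT6 stood at 4209 and 4185 with vehicle and at 3373 and 3527 with EC359, whereas the STAT3 points of the treatments interleave.

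The JAK kinases start the signal at the receptor. JAK1, the kinase that gp130 signalling chiefly depends on, had 8008 and 7593 normalized counts with vehicle and 8342 and 8027 with EC359. Each EC359 value exceeded each vehicle value, the lower one only just. The log2 fold change was 0.07 ± 0.04 (SE) with an adjusted p of 0.322 (edgeR's quasi-likelihood test). JAK2, which also serves the growth hormone and erythropoietin receptors, had 740 and 695 with vehicle and 753 and 812 with EC359. Its EC359 libraries were likewise above the vehicle libraries, and the log2 fold change of 0.12 ± 0.07 had an adjusted p of 0.348. The 95% interval of the change ran from -1.02% to 11.2% for JAK1 and from -2.4% to 21.7% for JAK2.

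TYK2, which pairs with JAK1 at interferon and interleukin receptors, had 1379 and 1602 normalized counts with vehicle and 1479 and 1519 with EC359. The vehicle libraries lay on either side of the EC359 libraries. They were 15% of their mean apart, the widest gap between replicates among the members, and the interval of the change ran from -9.67% to 11.9%. JAK3, the kinase of the common gamma chain in lymphoid cells, had 0 counts in the 4 libraries. A count of 0 allows up to 3 counts, which is 2.65 to 3.34 normalized counts per library. Per length, JAK1 made up 70.4% and 67.6% of the JAK family's level with vehicle and 70.2% and 68.4% with EC359, so the family's make-up overlapped between treatments.

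STAT3, the main STAT activated through gp130, did not move beyond its replicates. It had 1842 and 1909 normalized counts with vehicle and 1858 and 1902 with EC359, and both EC359 values lay between the vehicle values. The log2 fold change was 0.00 ± 0.05 with an adjusted p of 0.981, and the 95% interval ran from -6.98% to 8.01%. A change of STAT3 RNA within that interval was not detectable with these libraries. STAT5B, a mediator of growth hormone and interleukin signals, had 1533 and 1401 with vehicle and 1407 and 1375 with EC359. The lower vehicle library lay below the higher EC359 library, and the interval ran from -13.4% to 3.89% with an adjusted p of 0.495. STAT5B shares 8.03% of its 50-base exon windows with other loci, mainly STAT5A, and 415 exon bases lie opposite STAT5A, so counts between the pair are uncertain.

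STAT6, the transcription factor of the interleukin 4 and interleukin 13 receptors, had 4209 and 4185 normalized counts with vehicle and 3373 and 3527 with EC359. Both EC359 libraries were below both vehicle libraries. The difference of the means, 4197 ± 17 (SD) against 3450 ± 109, was larger than the spread in either treatment. The log2 fold change was -0.28 ± 0.04 (SE), a change of -17.8% with a 95% interval from -22.6% to -12.7%, and the adjusted p was 0.005 (edgeR's quasi-likelihood test). Before scaling, the counts were 3787, 3761, 3814 and 3777, close to level over libraries with 25603886 and 25572494 counts on genes with vehicle and 31707553 and 29914788 with EC359. With scaling by total counts alone, in place of the TMM factors, the log2 fold change was -0.26 with an adjusted p of 0.00709. Without EC359 replicate 1 the log2 fold change was -0.25 and the adjusted p 0.328, and without EC359 replicate 2 they were -0.31 and 0.242. In those fits 0 and 2 of all genes tested were called, with 1460 at an unadjusted p under 0.05 in the first, whereas without vehicle replicate 1 or 2 the adjusted p of STAT6 was 0.000562 and 0.000203. With no filter on low counts its adjusted p was 0.0107, just outside the threshold. The gene spans chr12:57489191-57525922 on the minus strand of GRCh37, the build of the counts (GENCODE annotation), and has 59 exon bases opposite LRP1 and 69 opposite NAB2, whose log2 fold changes were -0.01 and -0.08 with adjusted p of 0.967 and 0.571.

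Ratios taken within a library do not depend on scaling. The count of STAT6 over that of STAT3 was 2.29 and 2.19 with vehicle and 1.82 and 1.85 with EC359. STAT6 over STAT5B was 2.75 and 2.99 with vehicle and 2.4 and 2.57 with EC359. Both ratios were below the vehicle range in both EC359 libraries. STAT3 over STAT5B, in contrast, was 1.2 and 1.36 with vehicle and 1.32 and 1.38 with EC359, and the treatments overlapped. In level per length, STAT6 made up 49.6% of the STAT family in each vehicle library and 42.9% and 44.4% with EC359.

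Of the STAT genes outside the 10, STAT2, a factor of the type I interferon response, had 590 and 577 normalized counts with vehicle and 676 and 651 with EC359. Both EC359 values were above the vehicle values, and the adjusted p of 0.162 missed the threshold. STAT5A had 37.8 and 33.4 normalized counts with vehicle and 45.1 and 55.1 with EC359, with a log2 fold change of 0.49 and an adjusted p of 0.261. It was far less abundant than STAT5B, at 0.198 against 4.29 RPKM (reads scaled by exon length and library size) with vehicle, and shares 19.5% of its windows with other loci. STAT4, a factor of lymphoid cells, had 0 and 7 counts with vehicle and 3 and 6 with EC359 and was too low to be tested. Of the 6 STAT genes tested, 1 was called lower and 0 higher, with a median log2 fold change of 0.07.

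**Figure D2:**
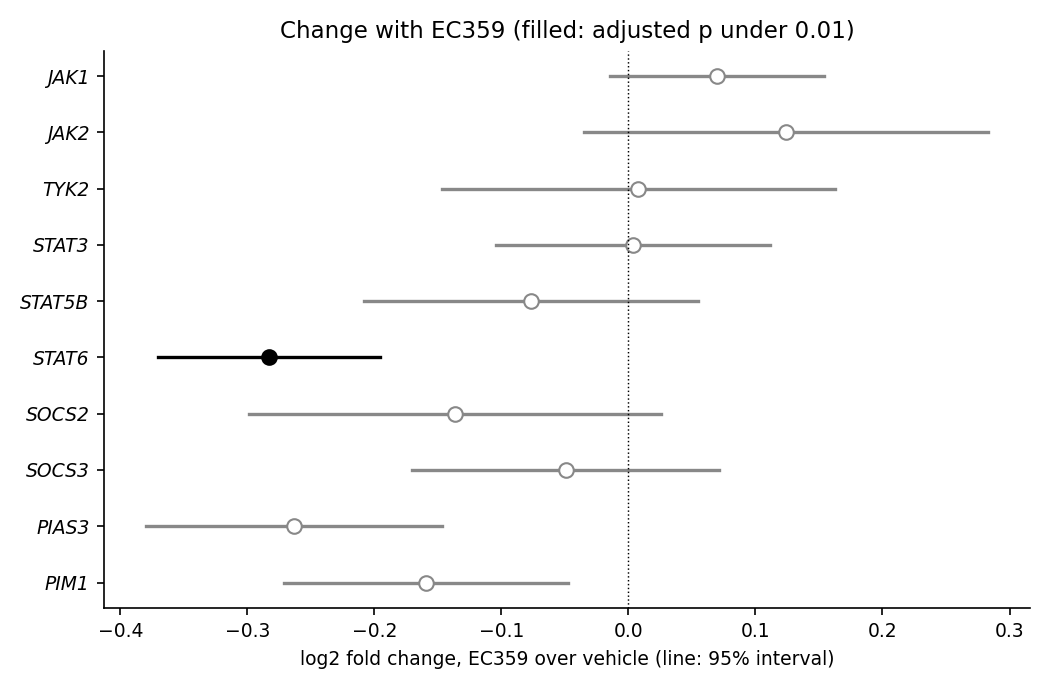
Log2 fold change of each member, EC359 over vehicle, with its 95% interval from edgeR's quasi-likelihood fit to 2 libraries per treatment. The filled point, STAT6, is the member with an adjusted p under 0.01, and the intervals of STAT6, PIAS3 and PIM1 lie below 0 while the other 7 include it.

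The SOCS proteins are made in answer to the signal and shut it off. SOCS3, which binds gp130 and blocks the JAKs there, had 1582 and 1658 normalized counts with vehicle and 1525 and 1606 with EC359. The treatments overlapped, the log2 fold change was -0.05 ± 0.05 with an adjusted p of 0.646, and the interval ran from -11.1% to 5.05%. SOCS3 over STAT3 within a library was 0.859 and 0.868 with vehicle and 0.821 and 0.844 with EC359. The EC359 values of this ratio lay just under the vehicle values. SOCS2, a regulator of growth hormone signals, had 659 and 639 with vehicle and 570 and 612 with EC359. Its EC359 libraries were below the vehicle libraries, and the log2 fold change of -0.14 ± 0.07 had an adjusted p of 0.312.

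Of the 8 SOCS family genes tested, CISH included, 0 passed the threshold in either direction, 3 had a higher mean with EC359 and 5 a lower one. In level per length SOCS3 led the family in the 4 libraries, with 40.5% and 42% of it with vehicle and 39.5% and 41.2% with EC359. SOCS4 followed at 20.9% and 19.5% with vehicle and 21.3% and 20.7% with EC359. SOCS1, the inhibitor induced by interferon gamma, was near the limit of the test, with 13 and 28 counts with vehicle and 23 and 26 with EC359. CISH, whose promoter window carries the 4 STAT motifs printed above, had 6 and 14 counts with vehicle and 17 and 18 with EC359, with a log2 fold change of 0.51 and an adjusted p of 0.546.

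PIAS3, which binds phosphorylated STAT3 and is a ligase for the modifier SUMO, had the log2 fold change closest to that of STAT6 among the 10 members. It had 1696 and 1726 normalized counts with vehicle and 1459 and 1391 with EC359, so both EC359 libraries were below both vehicle libraries. The log2 fold change was -0.26 ± 0.05 (SE) with a 95% interval from -23.1% to -9.68%, and the adjusted p of 0.0224 missed the threshold of 0.01. Its call moved with the processing, since it passed the threshold in 3 of 11 alternatives that kept the 4 libraries. With 1 library left out its log2 fold change ran from -0.30 to -0.23. The gene (chr1:145575233-145586546, GRCh37) shares 433 exon bases, 9.01% of its exons, with NUDT17 on the opposite strand. The kit keeps strand, but the strand setting of the counting was not given in the sources used here. NUDT17 had 55.6 and 62.3 normalized counts with vehicle and 49.5 and 51.4 with EC359, far fewer than PIAS3.

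PIAS4, a relative of PIAS3, had 405 and 416 normalized counts with vehicle and 512 and 487 with EC359. Its log2 fold change was 0.28 ± 0.08 with an adjusted p of 0.0716, so it was not called. As shares of the PIAS family's level per length, PIAS3 had 60.2% and 59.9% with vehicle and 53% in each EC359 library, and PIAS4 had 19.4% and 19.5% with vehicle and 25.2% and 25.1% with EC359. Of the 4 PIAS genes 0 were called, 2 had a higher and 2 a lower mean with EC359. PIAS3 over STAT3 within a library was 0.921 and 0.904 with vehicle and 0.785 and 0.731 with EC359.

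PIM1, a serine/threonine kinase and a known target of STAT3 and STAT5, had 1617 and 1601 normalized counts with vehicle and 1442 and 1440 with EC359. Both EC359 libraries were below both vehicle libraries, and the gap between replicates was 0.99% of their mean with vehicle and 0.126% with EC359. For scale, counting error alone gives a single library a relative SD of 2.64% at the lowest PIM1 count. The model, which shares the estimate of spread between genes, gave a log2 fold change of -0.16 ± 0.05 with an adjusted p of 0.0999. PIM2 had 561 and 559 with vehicle and 443 and 486 with EC359, with a log2 fold change of -0.27 and an adjusted p of 0.0815. PIM3 had 892 and 1066 with vehicle and 838 and 969 with EC359, and its treatments overlapped. The 3 PIM genes thus had lower means with EC359 and 0 of them passed the threshold. PIM1's share of the PIM family's level per length was 46.7% and 43.5% with vehicle and the same with EC359.

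**Figure D3:**
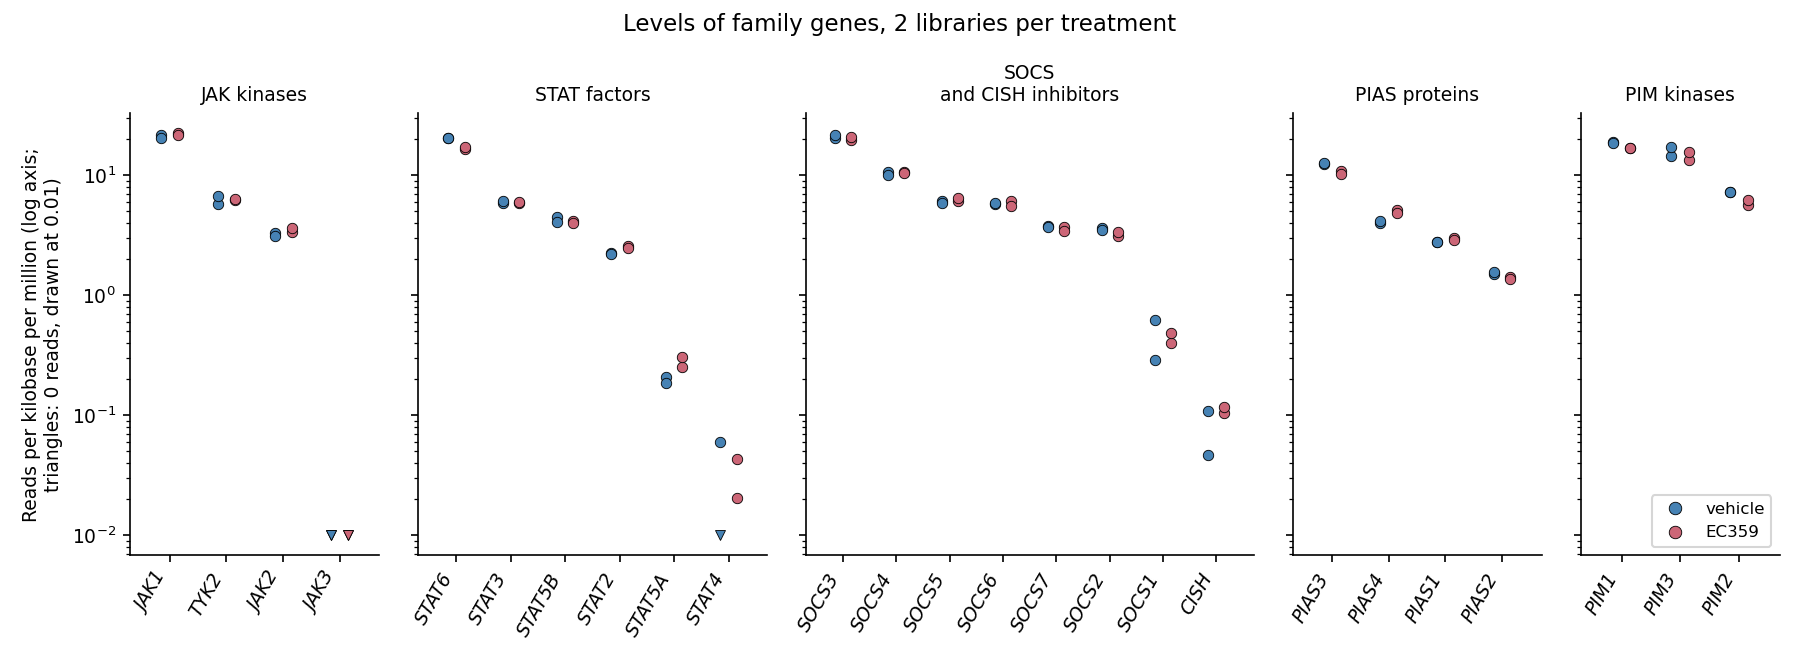
Level of the JAK, STAT, SOCS, PIAS and PIM genes reported here in the single libraries, in RPKM on a log axis. Triangles stand for 0 reads and are drawn at the foot of the axis. JAK1, STAT6, SOCS3, PIAS3 and PIM1 are the highest of their families with vehicle, and JAK3 is at 0 in the 4 libraries.

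Levels between genes can be compared only per length, here in RPKM over annotated exons. With vehicle the order of the members was SOCS3 at 21 ± 0.7, JAK1 at 21 ± 0.789, STAT6 at 20.4 ± 0.0827 and PIM1 at 18.8 ± 0.132. The first 3 did not differ beyond their spread. PIAS3 followed at 12.6 ± 0.155, then TYK2 at 6.2 ± 0.656 and STAT3 at 5.93 ± 0.152, whose libraries overlapped. STAT5B at 4.29 ± 0.273, SOCS2 at 3.55 ± 0.0789 and JAK2 at 3.22 ± 0.142 were lowest. With EC359, 3 pairs of neighbours changed places by their means. JAK1 stood at 22 ± 0.6 and SOCS3 at 20.3 ± 0.745, PIM1 at 16.9 ± 0.015 and STAT6 at 16.8 ± 0.527, and JAK2 at 3.51 ± 0.189 and SOCS2 at 3.23 ± 0.163. The EC359 libraries of PIM1 lay between those of STAT6, so this pair did not differ beyond its spread. The order also depends on the exon length used. Over the longest transcript alone STAT6 came first at 37, JAK1 next at 35.5 and SOCS3 lower in the order at 21.

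The receptors upstream and the partners of the pathway were taken from lists of 91 genes, members included, of which 79 were tested. STAT6 was the 1 gene called, and of the 69 tested genes outside the members 0 passed an adjusted p of 0.01 in edgeR's quasi-likelihood test, beside 1.09% of all genes tested. At an unadjusted p under 0.05 were 18 of the 69, near the background of 21.6% of all genes. Of 18 JAK-coupled receptors tested, 12 had a higher mean with EC359 and 6 a lower one. The lowest adjusted p among them were those of IL13RA1 and IL6ST. IL13RA1, a receptor chain for interleukin 13 that signals to STAT6, had 1330 and 1309 normalized counts with vehicle and 1659 and 1589 with EC359. Its log2 fold change was 0.30 ± 0.05 with an adjusted p of 0.0137. IL6ST, which encodes gp130, had 6566 and 6380 with vehicle and 7379 and 7240 with EC359, with a log2 fold change of 0.18 ± 0.03 and an adjusted p of 0.0203. For both receptors the EC359 libraries were above the vehicle libraries. LIFR, the target of the drug, had 1525 and 1475 with vehicle and 1612 and 1519 with EC359, with an adjusted p of 0.555.

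Of 8 phosphatases listed with JAK and STAT signalling, which differ in their effect on it, 4 were tested. Of these 0 were called and 4 had a higher mean with EC359, beside 51% of all genes. The lowest adjusted p were those of PTPN11, a positive element of receptor signalling, at 0.267 and PTPRK at 0.347. Of 13 adaptors and coactivators 0 were called, 6 had a higher and 7 a lower mean. CBL, a ubiquitin ligase of receptors, had the lowest adjusted p, 0.136, and STAM2, an endosomal sorting adaptor, the next, 0.157.

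Of 24 textbook STAT3 target genes 0 reached an adjusted p below 0.01 and 0 one below 0.05, and the median log2 fold change was 0.04. At an unadjusted p under 0.05, 3 were higher and 4 lower, near the background of 21.6% of all genes in either direction and 11% lower. The mean was higher with EC359 for 15 of the 24 and lower for 9. The lowest adjusted p were those of BIRC5 and FOS. BIRC5, the apoptosis inhibitor survivin, had 5212 and 5379 normalized counts with vehicle and 4811 in each EC359 library, with an adjusted p of 0.0563. FOS, an immediate early gene, had 140 and 117 with vehicle and 168 and 192 with EC359, a log2 fold change of 0.49 with an adjusted p of 0.0831. PIM1 is itself among the 4 lower genes.

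The members differed in how far their values moved with the processing. Over 11 other ways of processing the 4 libraries, the log2 fold change of STAT6 ran from -0.30 to -0.26 and that of PIAS3 from -0.27 to -0.24. STAT6 was called under 10 of the 11 and PIAS3 under 3. PIM1 ran from -0.16 to -0.14 and was called under none of the 11, with adjusted p from 0.0124 to 0.257. With 1 library left out, PIM1 ran from -0.17 to -0.15, and TYK2, whose vehicle libraries were far apart, from -0.10 to 0.11.

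**Figure D4:**
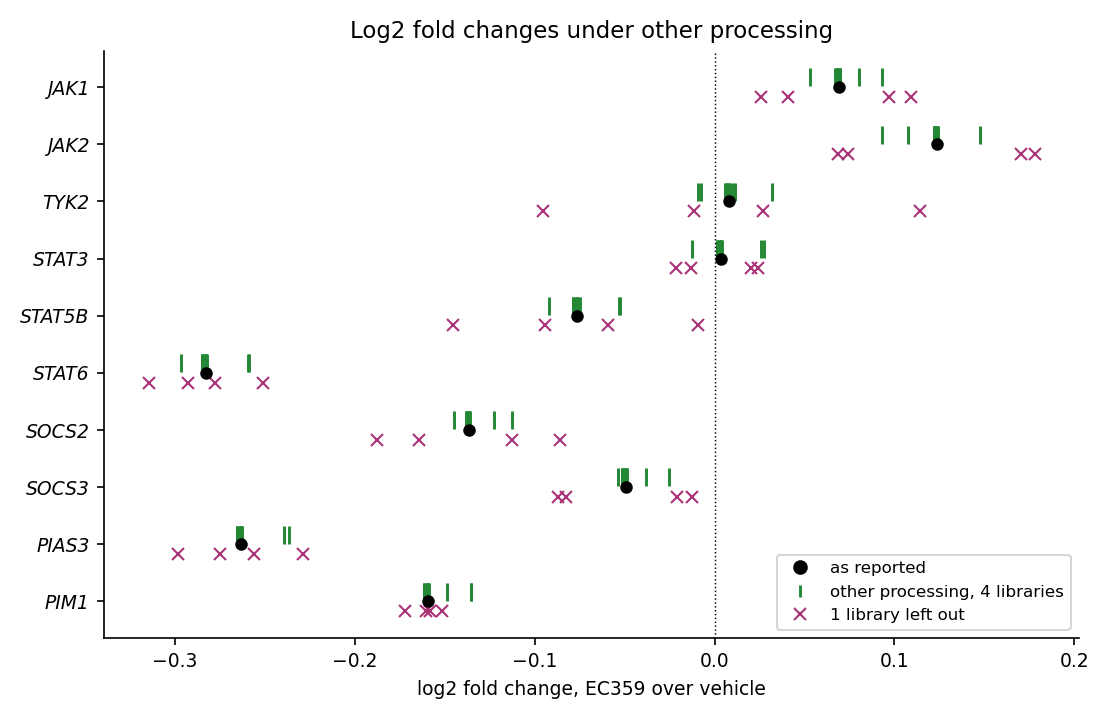
Log2 fold change of each member, EC359 over vehicle, as reported (black points), under other processing of the same 4 libraries (green ticks) and with 1 library left out (purple crosses). STAT6, PIAS3, PIM1, SOCS2, SOCS3 and STAT5B stay below 0 and JAK1 and JAK2 above it in the values plotted, whereas those of TYK2 and STAT3 fall on both sides.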

How the data were processed

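ES2 RNA was measured in 4 libraries, 2 with vehicle and 2 with EC359, all of them used. The authors called bases with CASAVA 1.8.2, aligned 50-base single-end reads to hg19 with TopHat2 2.0.8b and counted them per gene symbol by HTSeq. The deposited files hold these raw counts. Rows that name no gene (10.9% to 12% of uniquely aligned reads on no gene, 0.852% to 0.879% on several) were left out.

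The counts were filtered with filterByExpr (minimum count 10, minimum total 15), TMM-scaled and tested in edgeR 4.0.16 (R 4.3.3) by the quasi-likelihood test without a block, with Benjamini-Hochberg adjustment over 12706 genes and a threshold of 0.01, after a run on simulated counts. Standard errors are the log2 fold change over the square root of F, and 95% intervals use the same fit. Normalized counts were put on the scale of the average effective library. Levels divide by the union of exons (GENCODE 44 on GRCh37), found for 91.8% of the symbols. Replicates differed beyond sampling noise (chi-square over its degrees of freedom, 3.81 in the vehicle pair and 2.72 in the EC359 pair).

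The members and the gene lists were chosen with earlier results of these data known. All 10 members were described, and of each list the called genes or else the 2 with the lowest adjusted p, with the JAK, STAT, SOCS, PIAS and PIM relatives. Results for some listed genes are not reported here, though counts and family shares include them. Alternatives were other scaling (RLE, upper quartile, total counts), DESeq2 1.42.0, edgeR's exact test, limma 3.58.1 (voom), other filters, a replicate block, removal of length or GC trends, a threshold of 0.05, the longest transcript for levels, and each library left out.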

Additional observations from a re-analysis of the deposited data

How the results depend on the processing

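As reported, 139 genes were called, 38 higher and 101 lower, with 1 among the members and 1 among the genes of the pathway lists. With RLE, upper-quartile and voom, STAT6 remained past the threshold. With total counts alone, 52 genes were higher and 68 lower and 2 pathway genes were called. DESeq2 called 232 genes and 2 pathway genes. The edgeR exact test called 568 genes, 2 members and 4 pathway genes. With no filter, edgeR's quasi-likelihood test called 61 genes, 0 members (3 at an unadjusted p under 0.05) and 0 pathway genes (20 at that p). With the GC trend removed, 1017 genes, 2 members and 5 pathway genes were called. An adjusted p under 0.05 gave 549 genes, 2 members and 4 pathway genes. The labels give both treatments replicate numbers 1 and 2, but nothing says that a number marks a shared culture or day. Over the genes tested, the difference between replicates 1 and 2 with vehicle correlated at 0.103 with that under EC359. A replicate block gave 1539 genes, 2 members (STAT6 and PIAS3) and 13 pathway genes. With 1 library left out, 0 to 539 genes, 0 to 2 members and 0 to 4 pathway genes were called, and 2 to 4 members had a higher mean. The fewest genes, 0 and 2, came without EC359 replicates 1 and 2, and the lone library is then assumed to vary like the vehicle pair. With the length trend removed, 2 members had a higher mean. TYK2 and STAT3, at 0.01 and 0.00 on the log2 scale, changed sign: TYK2 to -0.0093 with the length trend and to -0.0078 with the GC trend removed, and from -0.0955 to 0.114 with 1 library left out, and STAT3 to -0.0124 with the length trend removed and from -0.0217 to 0.0241 with 1 left out. The cause was not tested. IL13RA1 passed the threshold in 5 and IL6ST in 3 of 11 alternatives. No scaling moved the median of all genes by over 0.1 on the log2 scale. Depth limits CISH, SOCS1 and STAT4, which had under 30 counts in every library.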
